A study of Mus musculus with 4 samples.

Results

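Of 21631 protein-coding genes on the 19 autosomes and X, 76 interleukin genes were examined for binding of the transcription factor Fos in mouse colonic epithelium. They are the genes whose symbol is Il followed by a digit: 83 symbols fit, and 7 were set aside by name (Il6st, Il6ra, Il22ra1, Il10rb, Il33, Il1rn and Il25). By role, 36 encode secreted ligands and 37 encode receptor chains. The other 3 (Il18bp, a secreted binder of IL-18, and Il4i1 and Il4i1b, whose names come from an enzyme induced by IL-4) are counted with the members but in neither group.

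Interleukins are secreted proteins through which leukocytes, epithelium and stroma signal to each other, and each acts on cells that carry its receptor chains. In the gut, T cells and innate lymphoid cells make many of the ligands, while epithelial cells carry receptors such as those for IL-17, IL-22 and IL-4 and secrete a few ligands themselves, IL-18 and IL-17C among them. Fos pairs with a Jun protein to form AP-1, which binds the sequence TGANTCA, and its genes are switched on within minutes by growth, stress and cytokine signals.

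Fos sites were mapped by CUT&Tag, in which an antibody carries the transposase Tn5 to a protein so that nearby DNA is cut and tagged. All 4 libraries came from wild-type (WT) mice and carry the same batch label, DSS21. The 2 healthy controls received no colitis treatment. The 2 colitis recovered animals drank 1-1.5% DSS (dextran sodium sulfate, which injures the colonic lining) in 3 cycles of 7 days, each followed by 10 days without it, and were killed 22 days after the last. Age and sex are not given. Colons stood in 4 mM EDTA with 10% serum for 30 min before the mucosa was scraped, so leukocytes and stroma of the mucosa could be among the nuclei. The deposited values were 1 series-wide list of summits, the points of highest coverage within called regions. With no value per library, healthy and recovered mucosa cannot be compared here, and the values have no replicate error. No library without the Fos antibody was used here, so cutting of open chromatin by Tn5 was not measured.

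The list held 178981 summits in 108406 regions, with a median fold enrichment over background of 6.73 and 27 fragments over the median summit. The lowest summit had 10 fragments, so sites weaker than that are not in the list. A summit within 1 kb of either end of a gene is called a boundary summit below, and one at an end or inside is the gene's own. The window of a gene runs from 50 kb before it to 50 kb after it, and 1051 distinct summits lay in the members' windows. As a check of the labelled tissue, 8 of 8 epithelial markers (100%, 95% Wilson interval 67.6-100%) had a boundary summit, against 62.0% of all protein-coding genes. Folds were 173 at Krt8, 158 at Vil1, 70.7 at Cdx2, 70.5 at Cdh1 and 68.8 at Epcam, but 19.2 at Muc2 and 18.8 at Krt18 and Krt20. Of 12 leukocyte markers 2 had one (16.7%, 4.7-44.8%), Itgam at 104 and Cd4 at 4.81, and 4 had a summit at an end or inside, while Ptprc, Cd3e, Cd3d, Cd3g, Cd8a, Cd79a and Adgre1 were among those with no summit of their own. Of 6 markers of stroma and vessels 2 had a boundary summit (33.3%, 9.68-70.0%), but 5 had a summit at an end or inside, with up to 22.9-fold among 13 inside Pecam1 and 10 inside Pdgfra. The part of non-epithelial nuclei in any result was not tested.

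The sequences below show what lies at the starts of the members on which the results turn. They are read 5′ to 3′ on the gene's strand from RefSeq promoters of build GRCm38.p6, the same assembly as mm10. Capitals mark the AP-1 sequence TGANTCA, which is its own reverse complement and so was searched on both strands at once. The first 3 are sites of 30 bases at starts with a summit nearby: Il17rb (chr14:30008982-30009011, minus strand), Il1a (chr2:129309966-129309995, minus strand) and Il15ra (chr2:11705671-11705700, plus strand). The next 3 are sites of the same length at ligand starts with no summit within 1 kb: Il6 (chr5:30012864-30012893, plus strand), Il11 (chr7:4778221-4778250, minus strand) and Il9 (chr13:56482379-56482408, minus strand).
Il17rb: cctcccgggccTGAGTCAttcgcaccccgc
Il1a: gcagagaagccTGACTCAgacttaagtctc
Il15ra: ggtggggatgcTGAGTCAcagatctgtcac
Il6: cTGAGTCActtttaaagaaaaaaaagaaga
Il11: aggagggagggTGAGTCAggatgtgtcagg
Il9: cctttgtcaagTGACTCAgactgatttttt

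The 250 bases before the start are shown for 3 members with a summit inside them: Il1f8 (chr2:24152922-24153171, plus strand), which holds the AP-1 sequence, and Il17c (chr8:122421770-122422019, plus strand) and Il4ra (chr7:125552021-125552270, plus strand), which do not and so have no capitals.
Il1f8: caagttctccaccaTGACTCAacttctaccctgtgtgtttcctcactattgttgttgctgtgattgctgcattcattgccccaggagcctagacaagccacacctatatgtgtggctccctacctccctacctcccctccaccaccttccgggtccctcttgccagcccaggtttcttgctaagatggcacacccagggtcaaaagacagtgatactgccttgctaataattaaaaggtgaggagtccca
Il17c: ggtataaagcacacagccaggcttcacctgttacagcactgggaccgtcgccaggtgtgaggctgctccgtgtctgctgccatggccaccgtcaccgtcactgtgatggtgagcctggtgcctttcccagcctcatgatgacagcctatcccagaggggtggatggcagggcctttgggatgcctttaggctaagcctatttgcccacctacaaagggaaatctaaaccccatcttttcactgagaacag
Il4ra: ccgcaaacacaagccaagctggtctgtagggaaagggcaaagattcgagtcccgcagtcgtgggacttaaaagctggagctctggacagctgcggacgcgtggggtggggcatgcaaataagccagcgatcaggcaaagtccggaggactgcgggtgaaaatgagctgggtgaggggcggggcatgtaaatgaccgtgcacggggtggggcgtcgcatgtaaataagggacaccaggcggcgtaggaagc

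A larger share of receptor genes than of ligand genes carried Fos summits of their own, and in both groups the share with a boundary summit was below that of protein-coding genes at large. A boundary summit was found at 10 of 36 ligands (27.8%, 95% Wilson interval 15.8-44.0%) and at 16 of 37 receptor chains (43.2%, 28.7-59.1%), against 62.0% of all protein-coding genes. The receptor share was 15.5 percentage points higher, with a Newcombe interval of -6.32 to 35.3 that includes 0. With 1 gene per cluster of neighbouring members it was 2.78 points, at 10 of 24 ligands (41.7%) and 12 of 27 receptors (44.4%). These counts are those of the first gene by position in each cluster. The clusters of Il1rl1, Il15ra, Il4ra, Il1f8 and Il1a each hold members with and without a boundary summit. The value thus depends on the gene kept. Counting summits inside the gene as well, 11 ligands (30.6%, 18-46.9%) and 27 receptor chains (73.0%, 57.0-84.6%) had a summit of their own, against 72.5% of all genes. On this count, with genes of any length and of all chromosomes together, the receptor share was near that of all genes and the ligand share below it. The intervals cover counting only, since genes of a family lie in shared clusters, and no p-value was computed for them.

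The median protein-coding gene, with genes lacking an own summit counted as 0, had a strongest own summit of 17.8-fold. This was exceeded by 49.8% of all genes, by 8 of 36 ligands (22.2%, 11.7-38.1%) and by 20 of 37 receptor chains (54.1%, 38.4-69.0%). The gap reflects which genes had a summit at all: among genes with an own summit, 8 of 11 ligands (72.7%), 20 of 27 receptors (74.1%) and 68.7% of all genes exceeded it. Their median own summits were 54.6-fold, 31.3-fold and 33.2-fold. The share with any summit in the whole window differed far less. It was 32 of 36 ligands (88.9%) and 33 of 37 receptors (89.2%), against 86.3% of all genes. The median count in the window was 7 summits for ligands (quartiles 1.75 and 21.5) and 15 for receptors (5 and 23), against 16 for all genes (5 and 29). The window includes the gene itself, and receptor genes are longer than ligand genes. Of the window summits, the member was the nearest gene for 31.5% in ligands (148 of 470) and 31.1% in receptors (194 of 624). The strongest summit in the window was the gene's own in 7 of 32 ligands and 10 of 33 receptors. For this count and the nearest-gene shares, no share over all protein-coding genes was computed. They cannot be called particular to the members.

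**Figure D1:**
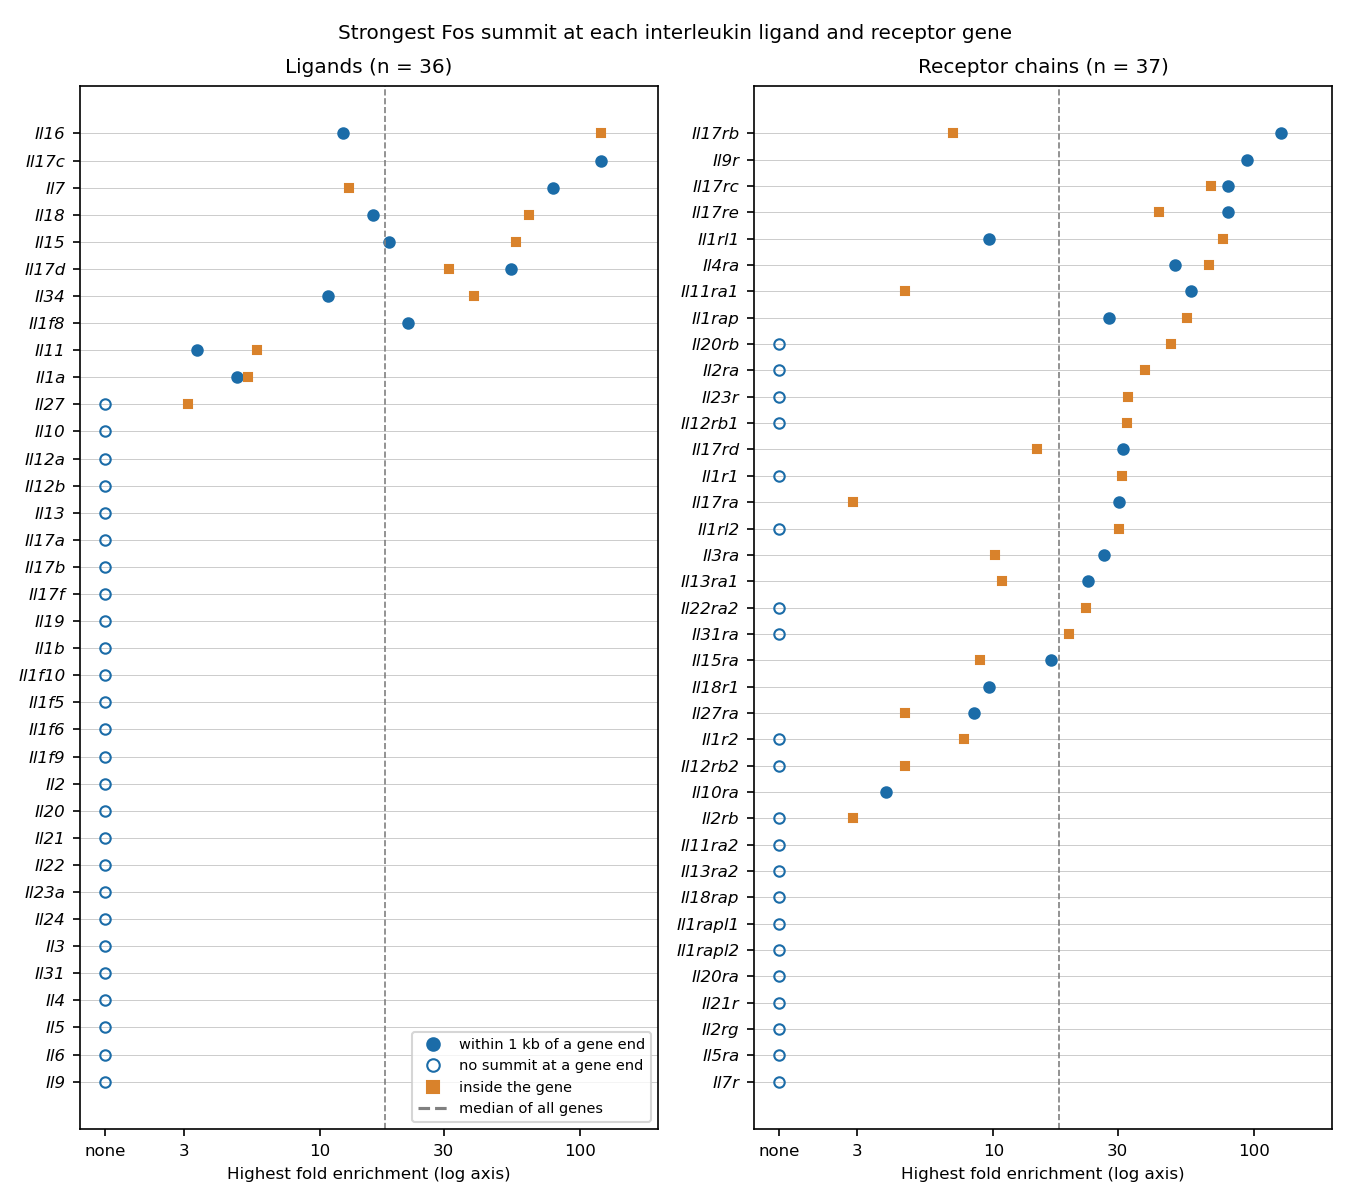
Highest fold enrichment (log axis) at a gene end (blue) and inside the gene (orange) for each of the 36 ligands and 37 receptor chains, from the series-wide list with no replicates; open circles mark genes with no summit at an end, and the dashed line is the median strongest own summit of all genes, 17.8. The right panel is filled down to Il2rb, with 10 receptors below it empty, while 25 of the ligands have no summit of their own.

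Gene length moved with this contrast. Ligand genes are short, with a median of 6400 bp against 32400 bp for receptors and 17300 bp for all genes, and a longer gene gives more room for summits inside it. Among genes under 10 kb, 2 of 25 ligands (8.0%, 2.22-25%) and 2 of 3 receptors (66.7%, 20.8-93.9%) had a boundary summit, against 48.1% of all genes of that length. Among genes of 10 kb and over, the order turned: 8 of 11 ligands (72.7%, 43.4-90.3%) and 14 of 34 receptors (41.2%, 26.4-57.8%) had one, against 69.7% of all such genes. In these longer genes own summits were about as frequent in ligands (8 of 11, 72.7%) as in receptors (25 of 34, 73.5%, 56.9-85.4%), both below the 84.8% of all genes of that length. Most ligands without a boundary summit were short genes, and among the short ligands Il17c and Il1f8 were the 2 with such a summit. The part of length in the difference between ligands and receptors was not tested further.

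**Figure D2:**
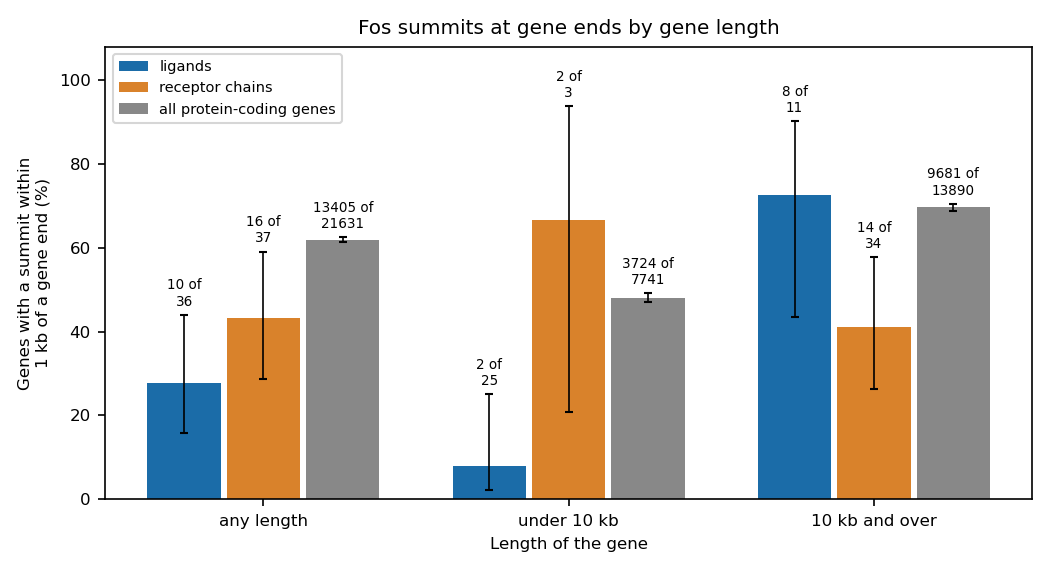
Share of genes with a summit within 1 kb of a gene end (%), for ligands, receptor chains and all protein-coding genes, by gene length; bars start at 0, lines are 95% Wilson intervals, and counts stand above them. Ligands are at 8.0% among genes under 10 kb and at 72.7% among longer genes, against 66.7% and 41.2% for receptors.

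Il17c, an IL-17 ligand that epithelial cells secrete, had the strongest summit at an end of any ligand. The gene (chr8:122422020-122423639, plus strand) is 1.62 kb long, and a summit of 121-fold lay 242 bp before its start, inside the promoter printed above. At that point 501 fragments overlapped (exact 95% Poisson interval 458-547), against 3.16 per base in the background. Its other boundary summits reached 4.81-fold and 5.77-fold and it had none elsewhere in the gene.

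Il16, a ligand of CD4 unrelated in structure to the other interleukins, had a summit as strong inside the gene, at 121-fold and 500 fragments (457-546). Its 19 inside summits lay between 68681 and 98639 bp from the upper end of a gene 103 kb long on the minus strand, so they fell in its 3′ part; 60.4-fold and 53.4-fold were the next in strength. One of the starts that RefSeq lists for Il16 also lies in this part, and the 121-fold summit is 1035 bp after it. Its only boundary summit, near the 3′ end of the gene, was 12.3-fold.

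Of the 7 ligands of the common gamma chain and type 2 group, which act mainly on lymphocytes, 2 had own summits. Il7, a survival signal for lymphocytes, had 78.9-fold (327 fragments, 293-364) 633 bp inside the upper end of the gene. Il15, which sustains intraepithelial lymphocytes and natural killer cells, had 23 summits inside and 3 at its upper end. The inside summits reached 57.0-fold (236 fragments) and the end summits 18.5-fold, and the member was the nearest gene for 34 of its 34 window summits. The other 5 (Il2, Il4, Il9, Il13 and Il21) had no summit of their own.

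Among the IL-1 ligands, 3 of 8 had own summits. Il18, which epithelial cells store as a precursor cleaved by caspase-1, had 63.7-fold (264 fragments) inside the gene, 661 bp from the neighbouring gene Tex12, and 16.1-fold at its 5′ end, which is also 273 bp from an end of Bco2. Il1f8, which encodes an IL-36 ligand, had a single summit of 21.9-fold (90 fragments, 72.4-111) 157 bp before its start, and no other within 50 kb. Il1a, an alarmin released by damaged epithelium, had only 5.29-fold inside and 4.81-fold at its start. Il1b, the main IL-1 of myeloid cells, had no summit in its window.

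Il17d, another IL-17 ligand, had 54.6-fold (226 fragments) 907 bp inside its 5′ end and 31.3-fold within. Il34, a ligand of the macrophage growth factor receptor Csf1r, had 39.2-fold (162 fragments) among 12 inside summits and 10.8-fold at an end. The weakest of the 11 ligands with own summits were Il11, an IL-6-type cytokine, at 5.77-fold (23 fragments, 14.6-34.5), Il1a as above, and Il27, an IL-12-type cytokine, at 3.13-fold (12 fragments, 6.20-21.0). Folds of this size lie below the list's median of 6.73.

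Among the receptor families, the IL-17 receptors alone had a boundary summit at every chain, 5 of 5, against 2 of 5 IL-17 ligands. These receptor genes are all over 10 kb long, a length at which 69.7% of all genes had one. Of the IL-17 ligands only Il17d is that long, and under 10 kb the share of all genes was 48.1%. Role and length cannot be told apart here. Il17rb, which binds IL-25 and IL-17B, had the strongest own summit of any member, 127-fold (528 fragments, 484-575), 136 bp before its start. That point is also 131 bp from an end of Chdh, so the signal cannot be assigned to either gene. Il17re, the receptor chain for IL-17C, and Il17rc, a receptor chain for IL-17A and IL-17F, lie in tandem within 24.5 kb and share a summit of 79.9-fold (331 fragments, 296-369), 42 bp inside Il17rc and 739 bp past the end of Il17re. Il17re had 44.3-fold at its own 5′ end and 43.3-fold inside. Il17rc had 68.3-fold inside and 65.2-fold past its 3′ end, where Creld1 lies 7 bp away. Il17rd and Il17ra, the latter shared by most IL-17 receptors, had 31.5-fold and 30.5-fold, 87 bp and 81 bp inside an end.

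**Figure D3:**
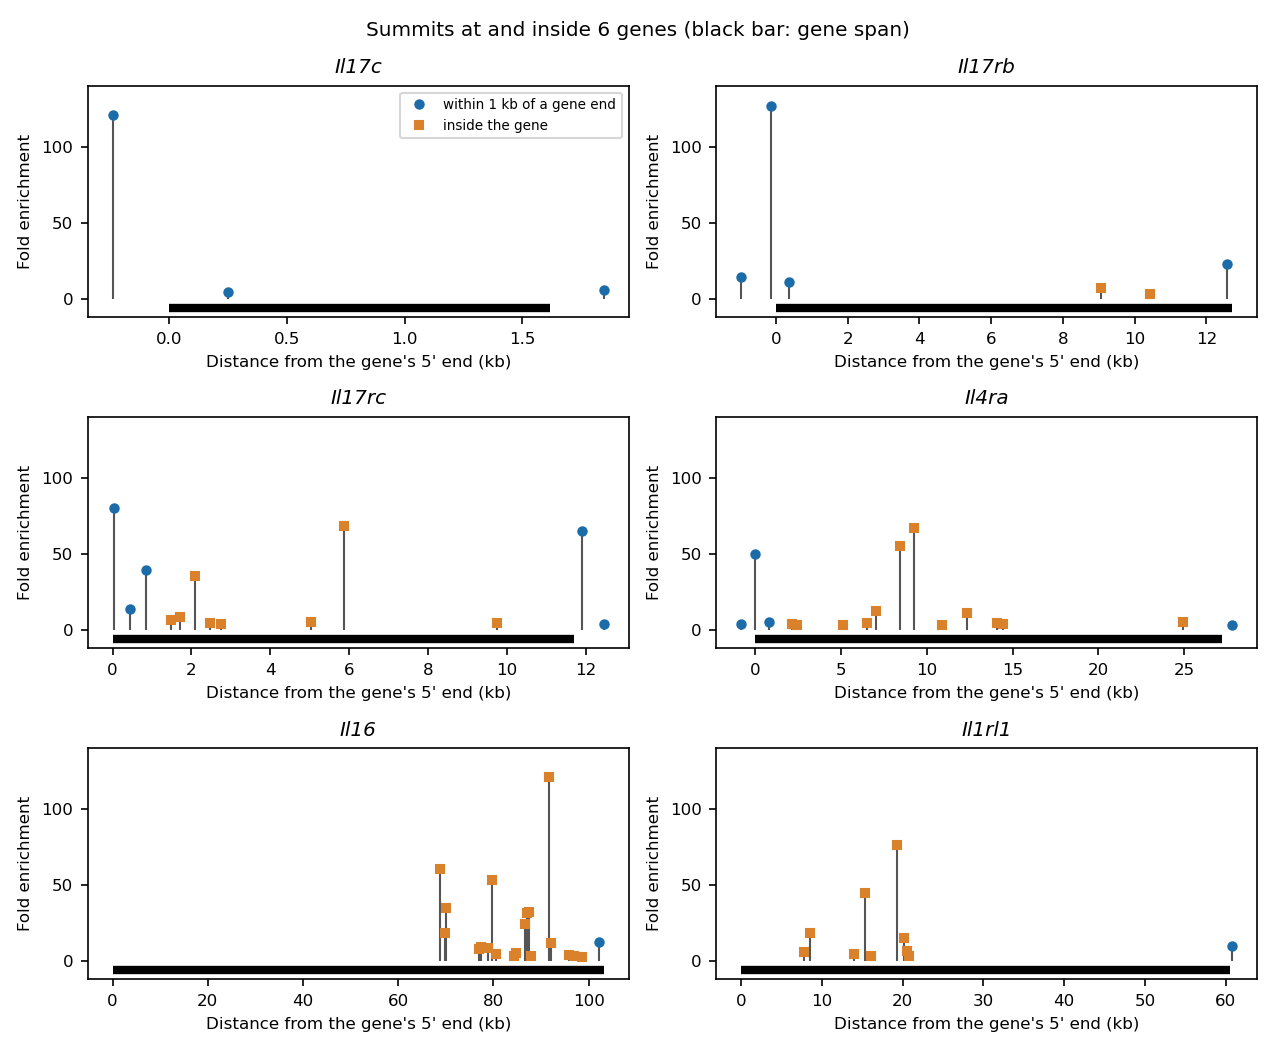
Fold enrichment of the summits at an end (blue circles) and inside (orange squares) of 6 genes, by distance from the gene's 5′ end in kb, with the gene as a black bar. Il17c and Il17rb carry 1 dominant summit before the start (121 and 127), Il17rc and Il4ra carry strong summits both at the start and inside, and Il16 and Il1rl1 have theirs inside the gene (121 and 76.0).

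Receptors of type 2 and gamma chain cytokines included several strong sites. Il9r, the receptor chain for IL-9, had 94.0-fold (390 fragments, 352-431) 131 bp beyond the 5′ end of its span, which is 1 bp from an end of Snrnp25; RefSeq lists its start further inside, with no summit within 1 kb. Il4ra, the chain that binds IL-4 and pairs for IL-13, had 67.1-fold (278 fragments) 9229 bp into the gene, 55.3-fold at 8415 bp, and 50-fold (207 fragments, 180-237) 31 bp before its start, in the promoter printed above; the member was the nearest gene for 23 of its 23 window summits. Its partner for IL-13, Il13ra1, had 23.1-fold 194 bp before its start. Il2ra, the high-affinity IL-2 chain of regulatory T cells, had 38.2-fold inside and none at an end. Il15ra, which presents IL-15 on the cell surface, had 16.6-fold. Il2rb, the signalling chain for IL-2 and IL-15, had only 2.89-fold (11 fragments), and Il7r, Il21r, Il2rg (the common gamma chain) and Il13ra2 had no summit of their own.

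Of the 9 chains of the IL-1 receptor family, 6 had own summits, and these lay mostly inside the genes. Il1rl1, the ST2 receptor for IL-33, had 76.0-fold (315 fragments, 281-352) and 44.3-fold inside and 9.62-fold at its 3′ end, the last shared with the start of Il18r1, the IL-18 receptor. Il1rap, the accessory chain of the family, had 55.6-fold inside and 27.7-fold at its 5′ end, 16 bp before the listed start. Il1r1, the signalling IL-1 receptor, had 16 inside summits up to 31.3-fold, Il1rl2, the IL-36 receptor, 30.5-fold, and Il1r2, the decoy IL-1 receptor, 7.70-fold. None of these last 3 had a summit at a gene end. RefSeq lists starts for Il1r1 and Il1r2 that differ from the ends in the gene table, and there summits of 6.49-fold and 4.81-fold lay 38 bp after and 97 bp before the listed start. Another listed start of Il1r1 had a summit of 18.5-fold 106 bp after it. The others, Il18rap and the 2 synaptic proteins Il1rapl1 and Il1rapl2, had none.

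The remaining receptor families were mixed. Il11ra1, the IL-11 receptor, had 57.2-fold (237 fragments, 208-269) 129 bp inside its start. Il11ra2, a near-identical copy of it, had no summit in its window, and reads of the 2 copies may not be separable, so its absence from the list is uncertain. Il23r and Il12rb1, chains for IL-23 and IL-12, had 33.0-fold and 32.7-fold, both inside the gene, and Il31ra 19.5-fold, also inside. Il27ra and Il12rb2 were weak, at 8.42-fold and 4.57-fold. Il20rb, a chain for IL-19, IL-20 and IL-24, had 48.3-fold (200 fragments) among 8 inside summits. Il22ra2, the soluble decoy for IL-22, had 22.6-fold inside. Il10ra, the IL-10 receptor chain, had 3.85-fold at its end (15 fragments, 8.40-24.7). Il3ra had 26.7-fold 118 bp before its span, which is 701 bp before the listed start, and 10.8-fold 139 bp before that start. Il5ra and Il20ra had no summit of their own.

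Of the members in neither group, Il4i1b had 69.3-fold 404 bp before its start, inside Atf5, Il4i1 had 7.94-fold and Il18bp had 4.57-fold.

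Read as ligand and receptor, 30 pairs could be formed from textbook pairings among the members. Both partners had own summits in 7 pairs: Il1a with Il1r1, Il18 with Il18r1, Il1f8 with Il1rl2, Il11 with Il11ra1, Il15 with Il15ra, Il17c with Il17re and Il27 with Il27ra. In 18 pairs only the receptor had one, for example Il4 with Il4ra, Il13 with Il13ra1 and Il23a with Il23r. Il9 with Il9r is counted here too, though the strongest own summit of Il9r lies 1 bp from an end of Snrnp25. In 1 pair, Il7 with Il7r, only the ligand had one. In the other 4 pairs neither did; 2 of these, Il19 and Il20, were paired with Il20ra, and would move to receptor only if paired with Il20rb, so the tally depends on the chain chosen. Il22 was paired with the soluble decoy Il22ra2 and counts among the 18. Pairs share genes, so they are not independent counts. Own summits were at 30.6% of ligands and 73.0% of receptor chains, against 72.5% of all genes. The tally was not compared with what these shares alone would give, so it says nothing about pairing.

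The 25 ligands without own summits included 11 made chiefly by T cells and other lymphocytes (Il2, Il3, Il4, Il5, Il9, Il13, Il17a, Il17f, Il21, Il22 and Il31), a list drawn up after their values were seen. Their lack of own summits is thus how they were picked. Their median window count was 1. Il22, which acts on epithelium to promote repair and defence, Il13 and Il3 had no summit in the window. Il17a had 1, of 18.5-fold, 9658 bp outside the gene. Il6, the inflammatory cytokine, had 4 window summits of up to 9.62-fold, the strongest 15883 bp away. Il10, which restrains inflammation, had 10, the strongest of 58.0-fold 14757 bp from the gene, where Mapkapk2 is the nearest gene. Il20 had 57.5-fold 4206 bp outside it, with Il20 the nearest gene, and the same summit was the strongest in the window of Il19. Il17f, Il23a and Il31 had strongest window summits at an end of, or inside, Mcm3 (21.4-fold), Cs (125-fold) and Diablo (23.3-fold).

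In all, 8 members had no summit in the window: the ligands Il22, Il13, Il3 and Il1b and the receptors Il11ra2, Il1rapl1, Il1rapl2 and Il13ra2. Of the last 4, all but Il11ra2 lie on X, which holds 5 receptor chains and no ligand. X was sparsely marked in general: its 966 protein-coding genes had a median of 1 summit in the window. On the autosomes alone, 15 of 32 receptors (46.9%, 30.9-63.6%) had a boundary summit, against 63.3% of autosomal genes. A summit at an end or inside was found at 26 of these 32 receptors (81.2%, 64.7-91.1%), against 74.0% of autosomal genes.

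A full window did not mean a marked gene. Il12rb1 had the most window summits of any member, 70, but was the nearest gene for 6 of them, and the strongest, 317-fold, lay 11097 bp away inside Mast3. Il17b, an IL-17 ligand with no own summit, had 49, the strongest of 228-fold 26925 bp away inside Grpel2. Il27 and Il2rb had 41 each, with strongest values of 143-fold and 170-fold outside the gene, against own summits of 3.13-fold and 2.89-fold. In the window of Il22ra2 the strongest, 229-fold, lay 61 bp from an end of Ifngr1, a chain of the interferon gamma receptor.

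Neighbouring members differed by cluster. With overlapping windows joined, the 76 genes formed 53 groups, of which 13 held 36 members in groups of at least 2. The IL-1 receptor cluster (chr1:40084692-40551707, 6 genes) held 44 summits in 467 kb, or 0.942 per 10 kb, with the highest inside Il1rl1. The span from Il24 to Il10 on the same chromosome held 2 summits in 143 kb (0.14 per 10 kb). Il4, Il13 and Il5 together held 2 in 113 kb (0.178 per 10 kb), and the IL-36 ligand cluster from Il1f8 to Il1f10 held 2 in 141 kb (0.142 per 10 kb). Il17re and Il17rc held 14 in 24.5 kb, or 5.72 per 10 kb. The receptor clusters Il22ra2 with Il20ra and Il12rb2 with Il23r held 0.29 and 0.291 per 10 kb. These were close to 0.28 for Il1a with Il1b and 0.268 for Il2 with Il21. Each span stops at its outer gene ends, so the 21.9-fold summit 157 bp before Il1f8 is not counted. No density over all genes was computed for such spans, so none can be called sparse or rich.

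Other genes of interleukin pathways had boundary summits at a larger share. On a mixed list of 32 (Janus kinases, STAT factors, the MyD88 and IRAK chain and SOCS inhibitors, with some ligands, receptor chains and processing genes outside the symbol rule), 29 had a boundary summit (90.6%, 75.8-96.8%), against 62.0% of all genes, 27.8% of ligands and 43.2% of receptors. A split made after the values were seen left 25 signalling genes, and 25 of 25 had one. It took out the ligands Ebi3 and Tslp, the receptor chains Crlf2, Csf2rb and Sigirr, and the processing genes Casp1 and Nlrp3. Those include all 3 genes of the list with no boundary summit. The full share was thus fixed by the choice and is not a separate result. Stat3, the factor activated by IL-6, IL-10 and IL-22, had 191-fold, Sigirr, an inhibitory IL-1 family receptor, 101-fold, and the kinase Irak4 96.2-fold. The weakest with a boundary summit were Jak3, the kinase of the common gamma chain, at 7.46-fold, Irak1 at 6.98-fold and Stat4, the IL-12 factor of T cells, at 6.01-fold. Csf2rb (the common beta chain), Nlrp3 and Tslp had none.

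**Figure D4:**
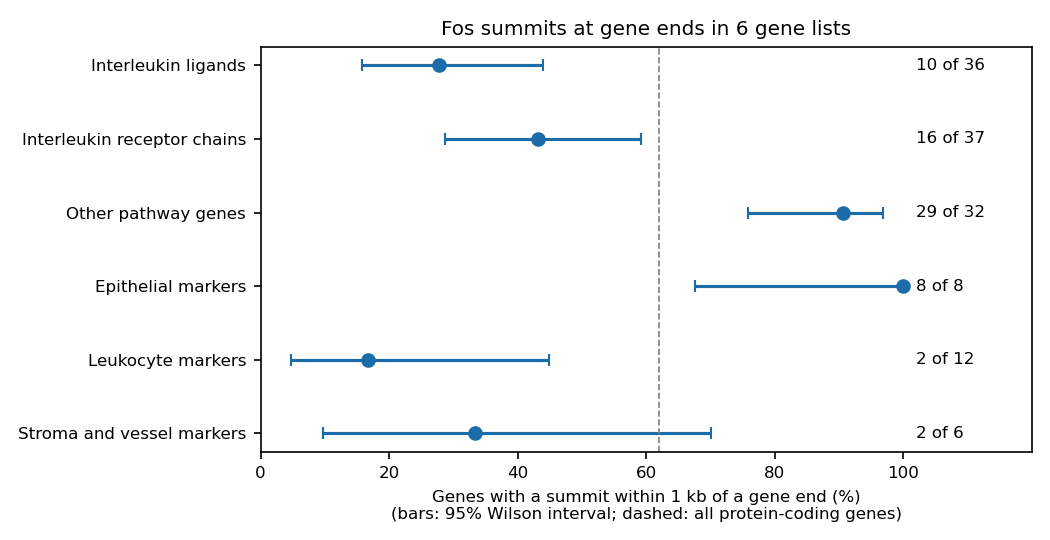
Share of genes with a summit within 1 kb of a gene end (%) in 6 gene lists, as points with 95% Wilson intervals and counts at the right; the dashed line is all protein-coding genes, 62.0%. The other pathway genes (90.6%) and epithelial markers (100%) lie above the line, ligands (27.8%) and leukocyte markers (16.7%) below it.

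Most boundary summits of members lay at the 5′ end. Where strand was known, 12 of 14 in ligands and 26 of 32 in receptors were at the 5′ end. For this count and the next, no share over all protein-coding genes was computed. Neither can be called particular to the members. The strongest boundary summit was also within 1 kb of another gene's end in 2 of 10 ligands (Il11 and Il18) and in 7 of 16 receptors (Il17rb, Il17rc, Il17re, Il18r1, Il1rl1, Il27ra and Il9r), so part of the receptor count rests on summits that other genes, or other members, share. Using only the starts that RefSeq lists, 6 of 27 ligands (22.2%, 10.6-40.8%) and 13 of 31 receptors (41.9%, 26.4-59.2%) had a summit within 1 kb, against 62.2% of all genes with a listed start.

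Promoter windows of 300 bp (250 before to 50 after the start) were found for 61 of the 76 members, as 73 entries. TGANTCA was in 12 of the 73 (16.4%), in 7 of 33 for ligands (21.2%) and 5 of 37 for receptors (13.5%), against 7.04% of all 21045 promoters. The cyclic AMP element TGACGTCA, also its own reverse complement and also searched on both strands, was in 0 of 73, against 2.26% of all. Of these members 14 had a summit in the window, 12 had the sequence, and 3 had both, namely Il17rb, Il1f8 and Il1a. With the listed start as position 0, the sequence of Il17rb begins at -104 and its centre lies 35 bp from the 127-fold summit. In Il1f8 it begins at -236, with its centre 76 bp from the summit, and in Il1a at -12, with its centre 97 bp from a summit of 4.81-fold. In Il15ra the sequence begins at -30 and the nearest summit, 11.3-fold, lies 122 bp from its centre. Il6 (-249), Il11 (-98), Il9 (-140), Il17a (-244), Il16 (-18), Il5ra (-99), Il20ra (-164) and Il13ra2 (-193) hold the sequence with no summit within 1 kb of that listed start; Il11 has another listed start, with a summit of 3.37-fold 712 bp after it. Over all promoters the sequence was in 5.5% of those with a summit in the window and 8.17% of those without. A match is a description of these letters only. Strong promoter summits fell in both kinds: the windows of Il17c (121-fold), Il17rc (79.9-fold) and Il4ra lack the sequence, and that of Il17rb (127-fold) holds it. The summits of Il17c (-242) and Il17rc (42) lie near an edge of the window, and bases beyond it were not read. Whether the sequence lies near these summits outside the window is thus not known.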

How the data were processed

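Per the submitters' processing notes, alignment used Bowtie2 and the mm10 build, and MACS2 made the peak calls. The sources used here give no version or setting, nor how duplicates were treated or the 4 libraries combined. The deposited list holds, for each summit, the authors' fold enrichment (a linear ratio over background), −log10 p-value (not used), −log10 q-value (at least 1.8) and a score equal to 10 times the −log10 q-value. Deposited folds were whole multiples of 0.2405 (100% within 0.05 steps, read from folds under 6), so the coverage count at each summit could be recovered. These counts are called fragments here, but whether MACS2 counted read pairs or single reads is not given. Summit position was column start plus offset, on 1-based coordinates.

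Gene spans came from the RefSeq gene table and promoters from the RefSeq promoter table (both mm10/GRCm38); 15 members have no promoter entry and no strand here. Regions have a median width of 527 bp. Members, gene lists and the length split were chosen with earlier results of these data known. Values of 1 leukocyte marker are not reported here. Any member could be named; full values were given for the strongest and the most crowded. Wilson and Newcombe intervals and exact Poisson intervals (statsmodels 0.14.6, scipy 1.17.1, Python 3.11.15) cover counting error only, as fragments are not independent molecules. The overlap code was checked on 20000 simulated summits, with 0 of 200 genes wrong. Alternatives were stricter −log10 q limits, other windows, 1 summit per region, narrow regions, 1 gene per cluster, and, chosen after seeing the data, gene length, autosomes and listed starts.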

Additional observations from a re-analysis of the deposited data

How the results depend on the processing

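Under 16 alternatives the 7 summary values gave 75 recomputed values, of which 57 were classed as little changed. The receptor minus ligand difference in boundary summits was recomputed under 11 of them and stayed between 2.78 and 23.8 percentage points in 9; the exceptions were the splits by length, where it was 58.7 under 10 kb (ligands 8.0%, receptors 66.7%, 3 receptors only) and reversed to -31.6 at 10 kb and over (ligands 72.7%); it was smallest with 1 gene per cluster. Median window counts, for ligands and receptors, fell to 4 and 7 with a −log10 q of at least 10, to 3 and 9 with a window of 20 kb, to 1.5 and 3 for summits nearest to the member, and to 4 and 9 in genes under 10 kb. The ligand median rose to 20.5 with a window of 100 kb, to 13 with 1 gene per cluster and to 16 in genes of 10 kb and over. Medians of 5 to 7 for ligands and of 10 to 22 for receptors were classed as little changed. No counting spread is given for these medians. The share of ligands with a strongest summit above the median gene was 47.2% when the whole window counted (17 of 36, median 55.1-fold) and 54.5% at 10 kb and over (6 of 11, median 27.7-fold). The length splits, autosomes and listed starts were chosen after seeing the data, and the cause of the moves was not tested beyond them. No paired analysis was possible because the list holds no value per library, and for the same reason leaving out each replicate was not run. Sites under 10 fragments are not in the list, so a gene without a summit may carry a weaker one.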
